A study of Mus musculus with 6 samples.

Results

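Calcium, sodium and TRP channel genes of mouse islets were examined as 1 module of 42 genes. Its members are the protein-coding genes whose symbols begin with Cacn, with Scn and a digit, or with Trpc, Trpm or Trpv, and whose raw counts summed to at least 60 over the 6 libraries. 1 TRP gene is left out by the rule. Of the 40914 genes with counts, 61 carried such names, 42 reached the minimum and 19 did not. The measured value that chose the members was the sum of counts over both genotypes, so the levels of the members are a description. The rule does not use the genotype, but the set was proposed with earlier results of these data known. The 42 genes were 19 calcium channel subunits (8 pores, 4 α2δ, 4 β and 3 γ subunits), 10 sodium channel subunits (7 pores and 3 β subunits), 12 TRP channels (4 TRPC, 5 TRPM and 3 TRPV) and *Trpc4ap*, which encodes a protein that binds TRPC4 and is not itself a channel.

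β-Cells secrete insulin by electrical activity: closure of ATP-sensitive potassium channels depolarizes the membrane, voltage-gated calcium channels open, and the calcium that enters triggers exocytosis of insulin granules. Calcium channels are built from a pore subunit that carries the current, a cytoplasmic β subunit and an α2δ subunit on the outer face, both of which bring the pore to the surface and tune its gating. Voltage-gated sodium channels shape action potentials in islet cells, and TRP channels carry background or ligand-gated cation currents that bring the membrane closer to threshold.

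The islets came from 2 genotypes at postnatal days 19 to 21: wild type (WT), and heterozygous *Akita*, with the genotype Ins2(WT/C96Y). The mutant allele encodes a proinsulin that misfolds in the endoplasmic reticulum and is carried by every cell, including those that do not use *Ins2*. By the study's methods the mutation was on the C57BL/6J background and *Akita* males were used. Whole islets were hand-picked and all were kept overnight in medium with 11.1 mmol/l glucose before RNA was taken. There were 3 WT libraries (WT1, WT2 and WT3) and 3 *Akita* libraries (AK4, AK5 and AK6), each a pool of 3 mice, so that p-values measure the spread between pools.

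The libraries held 22069554 to 27043169 counts. Insulin transcripts, the mark of islet tissue, took 17.62% to 19.21% of the counts in WT and 11.76% to 12.62% in *Akita*. Over all genes, 249 of 15407 passed an adjusted p of 0.05, of which 117 were higher and 132 lower in *Akita*. Leaving out AK6 left 0 calls in all by limma-voom (2440 genes at an unadjusted p under 0.05), leaving out WT3 left 1, WT2 7, AK5 49 and WT1 64, whereas leaving out AK4 gave 584. β-Cell markers summed to 223563 to 247470 CPM in WT (a gene's counts relative to the TMM-scaled library size, where TMM is a trimmed mean of log ratios between libraries) and 133182 to 157924 in *Akita*, with 4 of 12 called lower. α-Cell markers summed to 27248 to 42340 CPM in WT and 39220 to 61240 in *Akita*, with 12 of 12 estimates above 0, 5 of them at an unadjusted p under 0.05 and none called. Markers of pancreatic neurons summed to 32.8 to 39.9 CPM in WT and 68.5 to 81.5 in *Akita*, with 7 of 7 tested estimates above 0 and 1, *Th*, called higher. Most of each sum was *Th* itself, with 27.9, 30.1 and 33.8 CPM in WT and 59.2, 70.8 and 61.7 CPM in *Akita*. The neuron sums thus followed this gene, and the cells that expressed it were not examined. Acinar markers ranged from 244 to 8210 CPM over the libraries without following the genotype. Since whole islets were measured, fewer cells of a type and less RNA per cell cannot be told apart from these libraries alone. At the same age the paper counted cells and found the β/α ratio and the β-cells per islet area to be similar in both genotypes.

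None of the 42 genes was called at an adjusted p under 0.05 (limma-voom with Benjamini–Hochberg adjustment over all genes), against 1.62% of all genes tested. At an unadjusted p under 0.05 there were 11 of 42 (26.2%), against 18.7% of all genes. This count was 6 without WT1, 7 without AK5 and 19 when libraries were scaled by their totals alone. Over all genes it moved as well: 2437 of 15678 without WT1, 2087 of 15809 without AK5 and 3755 of 15407 under totals alone, against 2879 in the main fit. In the main fit 7 of the 42 genes were higher in *Akita* at this p, beside 1511 of all 15407 genes (9.81%). Another 4 of the 42 were lower, beside 1368 of all 15407 (8.88%). The 7 were the T-type pore *Cacna1g*, the α2δ subunits *Cacna2d1*, *Cacna2d2* and *Cacna2d4*, the calcium channel β subunits *Cacnb1* and *Cacnb4* and the sodium channel β subunit *Scn2b*, and the 4 were the sodium channel pore *Scn9a* and the TRP channels *Trpm3*, *Trpm1* and *Trpc1*. The *Akita* and WT libraries did not overlap in 14 of the 42 genes (33.3%), against 25.3% of all genes. Without overlap, 9 of the 42 were higher, beside 2028 of all 15407 genes (13.2%), and 5 of the 42 lower, beside 1875 (12.2%). Without WT3 the count was 22 genes, but fewer libraries are more easily separated, and the share of all genes was not taken at that setting. The median log2 fold change was 0.20 over the 42 genes and -0.0011 over all genes. By kind, 17 of 19 calcium channel subunits, 6 of 10 sodium channel subunits and 5 of 12 TRP channels had estimates above 0, against 49.8% of all genes. Only 6 of the 19 calcium channel subunits had an unadjusted p under 0.05, and some lay near 0, such as *Cacnb2* at 0.0026 and *Cacna1b* at 0.014.

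**Figure D1:**
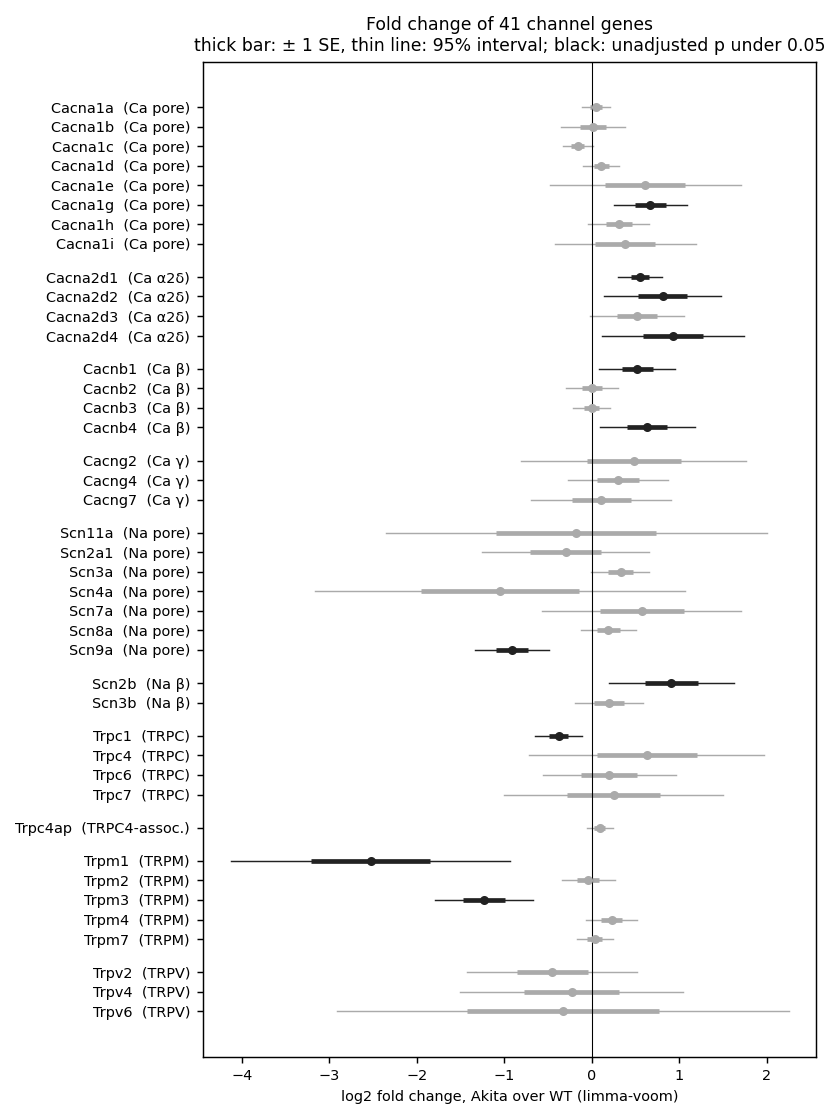
Log2 fold change of *Akita* over WT for 41 of the 42 genes, grouped by role, from limma-voom with 3 libraries per genotype. Points are estimates, thick bars 1 SE and thin lines 95% intervals; the 11 genes in black had an unadjusted p under 0.05, and all 4 α2δ subunits lie to the right of 0.

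The sequences shown here belong to the members with the lowest p, *Cacna2d1*, *Scn9a* and *Trpm3*, and to *Trpm1*, which had the largest fold change. *Trpm3* and *Trpm1*, both with estimates below 0 and neither called in the main fit, each hold a microRNA gene in an intron on their own strand. Mir204 lies within *Trpm3* at chr19:22750605-22750672 and Mir211 within *Trpm1* at chr7:64205806-64205911 (GRCm38). Their 5p microRNAs, from RefSeq, are printed 5′ to 3′ with the seed, bases 2 to 8, in capitals.
mmu-miR-204-5p: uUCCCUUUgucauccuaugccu
mmu-miR-211-5p: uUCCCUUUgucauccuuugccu
The seeds were the same, and over 22 bases the pair differed by 1 substitution, A17U, counted from the 5′ end of miR-204-5p. In β-cells miR-204 is known to target *Mafa*. *Mafa* itself was called lower in *Akita* (log2 fold change -1.09, SE 0.15, adjusted p = 0.0306, limma-voom), and a link to the microRNA was not tested. Both microRNA genes carry a mark in place of counts in the deposited table, so their levels were not analysed here.

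Promoter windows of RefSeq (250 bases before to 50 after a gene's start, GRCm38.p6) were found for 32 of the 42 genes, with 45 starts. They were searched on both strands for the GC box GGGCGG, for CCAAT, for the TATA box TATAAA, for the E-box CACGTG, and for 4 elements known from cAMP signaling and the unfolded protein response: TGACGTCA (cAMP response element), TGACGTGG (unfolded protein response element), the endoplasmic reticulum stress element (which contains CCAAT) and TGATGNAA (C/EBP-ATF element). The first 3 of these 4 were in none of the 45 windows, and in 1.79%, 0.676% and 0.119% of all 32851 windows. TGATGNAA was in 3 windows (6.67%), those of *Scn9a*, *Cacna1c* and *Trpc4ap*, against 3.97% of all. The GC box was in 18 (40.0%) against 35.7%, CCAAT in 9 (20.0%) against 37.4%, TATAAA in 4 (8.89%) against 13.6%, and CACGTG in 2 (4.44%) against 7.15%. A match is a run of letters and not a site shown to be used. Matches on either strand are in capitals.
Cacna2d1, chr5:15934441-15934740, plus strand: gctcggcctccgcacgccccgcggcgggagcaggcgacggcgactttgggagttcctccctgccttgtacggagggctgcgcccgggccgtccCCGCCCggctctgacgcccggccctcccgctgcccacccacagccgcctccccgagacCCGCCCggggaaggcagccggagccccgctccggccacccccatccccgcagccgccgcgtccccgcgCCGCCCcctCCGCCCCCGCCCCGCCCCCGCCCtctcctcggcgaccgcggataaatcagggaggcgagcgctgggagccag
Scn9a, chr2:66634913-66635212, minus strand: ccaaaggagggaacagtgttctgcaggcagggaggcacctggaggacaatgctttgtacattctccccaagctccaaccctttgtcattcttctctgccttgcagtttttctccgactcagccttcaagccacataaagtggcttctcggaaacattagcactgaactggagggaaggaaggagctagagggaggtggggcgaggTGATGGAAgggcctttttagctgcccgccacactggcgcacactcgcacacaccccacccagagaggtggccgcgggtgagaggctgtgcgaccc
Trpm3, chr19:22138796-22139095, plus strand: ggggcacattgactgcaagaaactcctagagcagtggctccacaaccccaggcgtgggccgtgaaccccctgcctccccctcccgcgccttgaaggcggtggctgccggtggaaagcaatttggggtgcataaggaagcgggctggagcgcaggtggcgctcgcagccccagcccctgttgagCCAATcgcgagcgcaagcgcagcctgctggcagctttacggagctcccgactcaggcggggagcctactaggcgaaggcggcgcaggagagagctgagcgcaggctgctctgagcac
Trpm1, chr7:64185209-64185508, plus strand: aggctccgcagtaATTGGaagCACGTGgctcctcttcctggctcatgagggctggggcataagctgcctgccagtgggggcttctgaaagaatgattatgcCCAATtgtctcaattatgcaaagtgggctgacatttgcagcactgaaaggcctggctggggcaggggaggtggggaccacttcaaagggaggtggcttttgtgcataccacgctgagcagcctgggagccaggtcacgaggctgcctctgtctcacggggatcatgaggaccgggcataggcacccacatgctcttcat
The *Cacna2d1* window held 7 GC boxes at a G+C content of 80.0%, against a median of 52.7% over all windows. The *Scn9a* window (57.3% G+C) held no GC box and 1 TGATGNAA, and the *Trpm3* window shown (66.7% G+C) held 1 CCAAT. *Trpm3* and *Trpm1* each have a pair of annotated starts. The other *Trpm3* window, at chr19:22447958-22448257 (58.0% G+C), held none of the motifs. The *Trpm1* window shown, of the inner start, held 1 CACGTG and 2 CCAAT, and that of the outer start, at chr7:64153585-64153884 (48.3% G+C), held 1 CCAAT. E-boxes of this form are bound by MITF, the melanocyte factor known to drive *Trpm1* in pigment cells.

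α2δ subunits hold calcium channel pores at the surface, and *Cacna2d1* encodes the main one of muscle and many neurons and the receptor of gabapentin. *Cacna2d1* (chr5:15934691-16374511, plus strand) had 151, 147 and 150 CPM in WT1, WT2 and WT3, and 188, 248 and 224 CPM in AK4, AK5 and AK6. The WT libraries lay within a narrow band and every *Akita* library above it. The mean was 149 ± 2.03 CPM in WT and 220 ± 29.8 in *Akita* (SD, n = 3), which is 1.47-fold and 0.55 on the log2 scale (SE 0.10; adjusted p = 0.0595, limma-voom).
The call depended on the setting: *Cacna2d1* passed the threshold under 6 of 14 other settings, with adjusted p from 0.0173 (without AK4) to 0.231 over all of them. *Cacna2d1* made up 90.6% ± 0.973 of the summed α2δ level per kilobase of exon in WT and 88.8% ± 2.35 in *Akita*, so that the level of the family followed this gene. The summed α2δ level per kilobase was 13.2, 13.2 and 13.3 CPM in the WT libraries and 17.6, 22 and 20.1 in AK4, AK5 and AK6.

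The other α2δ genes were weak. *Cacna2d2* had 5.57, 6.52 and 4.31 CPM in WT and 13.5, 7.47 and 8.56 CPM in *Akita*, a log2 fold change of 0.81 with SE 0.28 (adjusted p = 0.193), and its genotypes did not overlap. *Cacna2d4*, known from retinal photoreceptors, had 2.47, 3.80 and 5.42 CPM in WT and 4.91, 8.61 and 8 CPM in *Akita*, where AK4 lay below WT3, and its log2 fold change was 0.93 with SE 0.34 (adjusted p = 0.215). *Cacna2d3* stayed between 1.06 and 1.95 CPM and missed an unadjusted p of 0.05, although all *Akita* libraries lay above all WT libraries. All 4 α2δ estimates were thus above 0, from 0.52 to 0.93 on the log2 scale, and none passed the adjusted threshold. Beside these values the neuron sums, most of which were *Th*, did not overlap between the genotypes. The sums of PP- and ε-cell markers (4496 to 5401 CPM in WT and 5992 to 8814 in *Akita*, with 4 of 5 at an unadjusted p under 0.05) did not overlap either, whereas the α-cell sums did. Red blood cell markers summed to 5.08 to 8.12 CPM in WT and 9.72 to 24.6 in *Akita*, with 4 of 4 tested above 0, and all 9 macrophage markers had estimates below 0 (160 to 268 CPM in WT and 86.2 to 188 in *Akita*, with overlap). The part of these lists in the α2δ differences was not tested.

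**Figure D2:**
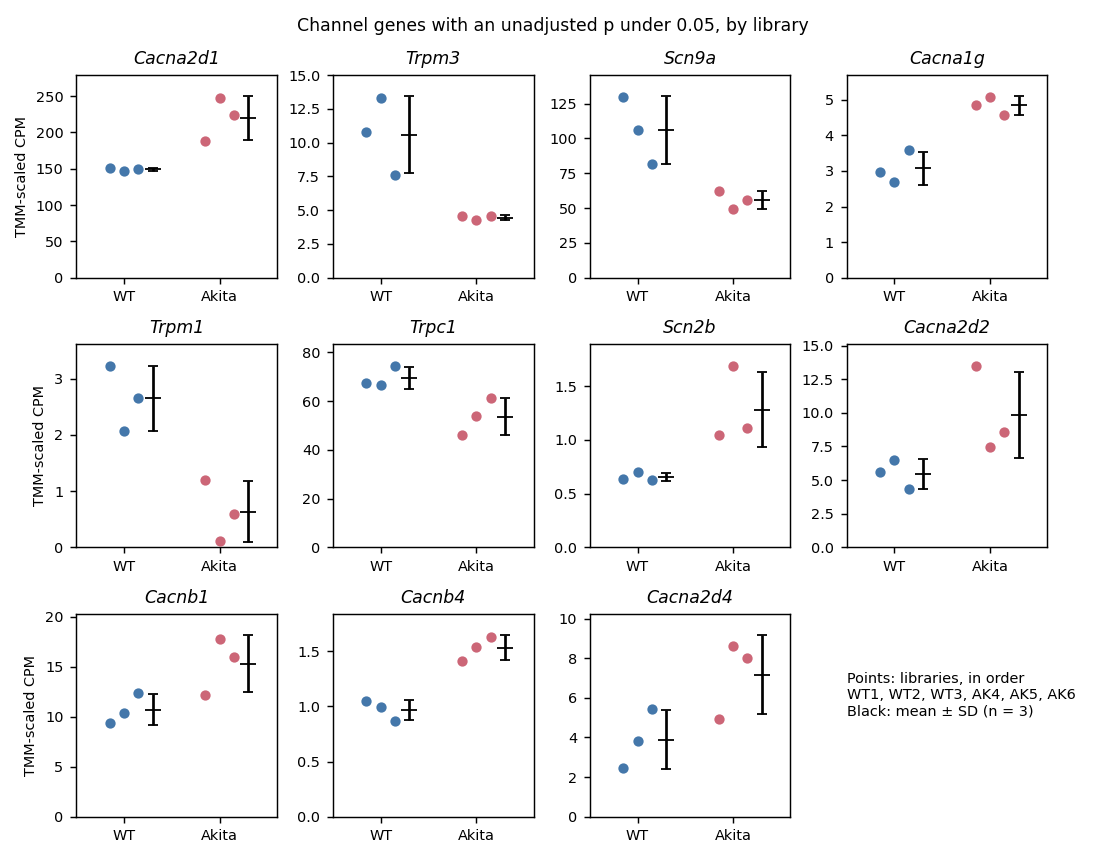
TMM-scaled CPM in each library of the 11 genes with an unadjusted p under 0.05, with WT in blue, *Akita* in red and the mean ± SD (n = 3) in black; each axis starts at 0. In 9 of the 11 the genotypes do not overlap, the exceptions being *Cacnb1* and *Cacna2d4*.

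Among the calcium channel pores, the L-type channel *Cacna1d* had the highest level per kilobase of exon in every library. *Cacna1d* and *Cacna1c* are the L-type pores through which β-cells are known to take up most of the calcium for insulin release, and *Cacna1a* forms the P/Q-type pore. *Cacna1d* had 123, 127 and 135 CPM in WT and 128, 152 and 135 CPM in *Akita*, and *Cacna1a* had 71.5, 74.9 and 78.5 CPM in WT and 77.5, 75.8 and 79.3 CPM in *Akita*. Both overlapped between the genotypes, with log2 fold changes of 0.11 (95% interval -0.10 to 0.31) and 0.051 (-0.11 to 0.21). *Cacna1d* shares 4.67% of its exon bases with *Chdh* on the other strand, and *Cacna1a* 3.81% with an antisense gene, and the library kit does not mark strand.
*Cacna1c* was the 1 calcium channel pore with an estimate below 0. Its libraries had 97.6, 102 and 108 CPM in WT and 94.2, 94.1 and 87.9 CPM in *Akita*, which do not overlap, but its log2 fold change of -0.16 (SE 0.072) had an adjusted p of 0.299.

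The order of the pores per kilobase was *Cacna1d*, *Cacna1a*, *Cacna1c*, the N-type *Cacna1b*, the T-type *Cacna1h*, *Cacna1g* and *Cacna1i*, and last the R-type *Cacna1e*. No neighbours in this order overlapped within either genotype. *Cacna1d* took 41.9% ± 0.283 of the summed pore level in WT and 43.4% ± 2.69 in *Akita*, *Cacna1a* 27.1% ± 0.210 and 26.9% ± 1.59, and *Cacna1c* 20.0% ± 0.0630 and 17.2% ± 0.524 (SD, n = 3). The summed pore level was 24.3 ± 1.29 CPM per kilobase in WT and 25.2 ± 0.958 in *Akita*. With coding length in place of exon length, *Cacna1c* came before *Cacna1a* (14.6 against 10.7 CPM per kilobase over all libraries), so their order depends on the length used. *Cacna1e*, with 0.262 to 0.831 CPM, was 12.7 times below the next pore per kilobase.

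T-type channels open at low voltage, and *Cacna1g* encodes one of their pores. *Cacna1g* (chr11:94408391-94474198, minus strand) had 2.96, 2.68 and 3.58 CPM in WT and 4.84, 5.09 and 4.58 CPM in *Akita*. All *Akita* libraries lay above all WT libraries, with a log2 fold change of 0.67 with SE 0.18 (unadjusted p = 0.00662, adjusted p = 0.113). Its share of the pore level was 1.25% ± 0.141 in WT and 1.89% ± 0.0385 in *Akita*. The other T-type pores, *Cacna1h* (6.85 to 10.5 CPM) and *Cacna1i* (1.79 to 4.30 CPM), also had estimates above 0, 0.31 and 0.38, but missed an unadjusted p of 0.05 with overlapping libraries.

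The β subunits bind the pore inside the cell and promote its delivery to the surface. *Cacnb3* led them and all auxiliary subunits by mean level per kilobase, with 77.9, 69.9 and 76.2 CPM in WT and 67.6, 79.1 and 77.2 CPM in *Akita*. The genotypes had the same mean of 74.7 CPM, and the log2 fold change was -0.0021 (95% interval -0.21 to 0.21). *Cacnb3* and *Cacna2d1*, the next in order, were apart in WT and overlapped in *Akita*, and by coding length *Cacna2d1* came first. *Cacnb3* took 79.5% ± 2.11 of the summed β level in WT and 76.1% ± 1.48 in *Akita*.

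*Cacnb1*, the β subunit of skeletal muscle and some neurons, had 9.39, 10.4 and 12.4 CPM in WT and 12.2, 17.8 and 16.0 CPM in *Akita*. AK4 lay below WT3, and the log2 fold change was 0.52 with SE 0.18 (adjusted p = 0.200). *Cacnb4*, a neuronal β subunit, had 1.05, 0.991 and 0.871 CPM in WT and 1.41, 1.54 and 1.63 CPM in *Akita*, which do not overlap, with a log2 fold change of 0.63 with SE 0.23 (adjusted p = 0.208). *Cacnb4* shares 16.0% of its exon bases with a transcript on the other strand, and reads from the pair cannot be told apart. *Cacnb2*, at 27.6 to 35.5 CPM, had a log2 fold change of 0.0026 (95% interval -0.29 to 0.30). The γ subunits *Cacng2*, *Cacng4* and *Cacng7*, of which all are better known as partners of AMPA receptors, were at 0.224 to 4.32 CPM with overlapping libraries.

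The level of the sodium channel pores rested mainly on a pair of genes. *Scn9a*, a tetrodotoxin-sensitive channel known from pain-sensing neurons and also carried by mouse β-cells, and *Scn3a*, known for the sodium current of α-cells, were the strongest of the 7. *Scn9a* (chr2:66480080-66634962, minus strand) had 130, 106 and 81.6 CPM in WT1, WT2 and WT3 and 62.4, 49.1 and 55.6 CPM in AK4, AK5 and AK6. Every *Akita* library lay below every WT library, and the WT libraries were themselves spread over a wide range. The mean was 106 ± 24.3 CPM in WT and 55.7 ± 6.65 in *Akita*, a log2 fold change of -0.91 with SE 0.18 (adjusted p = 0.0621, limma-voom), 1.88-fold lower. Under 14 other settings the estimate stayed between -1.08 and -0.75 and the adjusted p between 0.0516 and 0.231, so it passed under none.

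*Scn3a* had 30.7, 25.6 and 32.4 CPM in WT and 43.5, 35.1 and 32.6 CPM in *Akita*. AK6 lay just above WT3, and the log2 fold change of 0.33 (SE 0.14) missed an unadjusted p of 0.05, at 0.0529. Per kilobase, *Scn9a* was 4.13, 4.04 and 2.46 times *Scn3a* in WT1, WT2 and WT3 and 1.40, 1.36 and 1.66 times in AK4, AK5 and AK6. *Scn9a* remained the stronger of the pair in all 6 libraries, while its share of the summed pore level was 68.5% ± 5.78 in WT and 49.8% ± 2.52 in *Akita*. The share of *Scn3a* was 20.1% ± 4.45 in WT and 33.9% ± 2.04 in *Akita*, and that of *Scn8a*, a channel of nodes and axon initial segments, 8.51% ± 2.24 and 13.0% ± 2.51. The summed pore level was 12 ± 1.80 CPM per kilobase in WT and 8.76 ± 0.990 in *Akita*. These shares are descriptions without a test. The β-cell marker sums were lower in *Akita* without overlap. The α-cell sums overlapped between the genotypes, with 12 of 12 estimates above 0 and none called. The part of these markers in the shift from *Scn9a* to *Scn3a* was not tested.

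**Figure D3:**
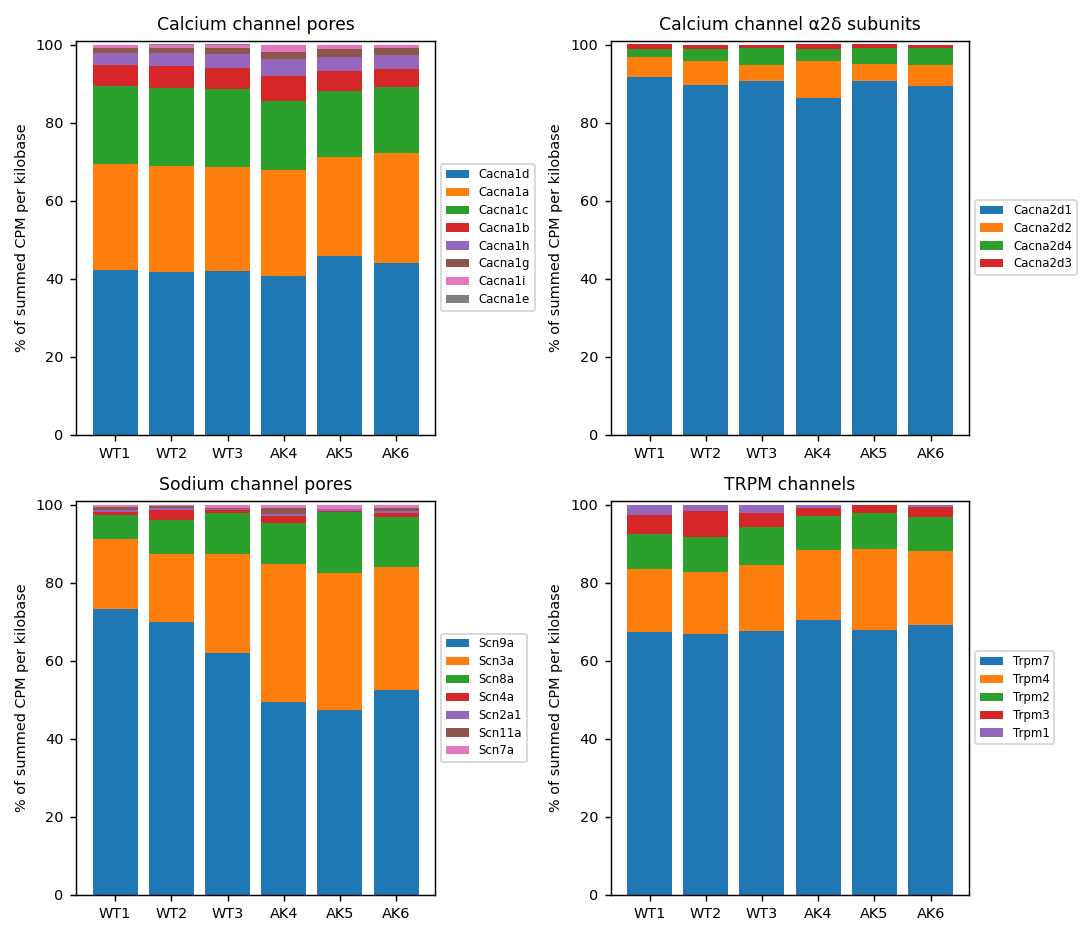
Share of each gene in the summed TMM-scaled CPM per kilobase of exon of its family, in percent, for each of the 6 libraries. *Scn9a* took 62.1% to 73.4% of the sodium channel pore level in WT and 47.5% to 52.5% in *Akita*, while *Cacna2d1* took 86.2% to 91.6% of the α2δ level in all libraries.

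*Scn8a* itself was at 13.5 to 20.0 CPM with overlapping genotypes. The other 4 sodium channel pores, *Scn2a1* of brain, *Scn4a* of skeletal muscle, *Scn7a*, which acts as a sodium sensor, and *Scn11a* of pain-sensing neurons, were at 0.0733 to 2.23 CPM, and neighbours in their order per kilobase overlapped in WT. *Scn11a* and *Scn7a* stood just inside the minimum, with 66 and 75 counts in all. *Scn11a* had 15, 10 and 3 counts in WT and 28, 2 and 8 in *Akita*, and *Scn7a* had 15, 4 and 11 in WT and 14, 16 and 15 in *Akita*. Their 95% intervals of the log2 fold change ran from -2.35 to 2 and from -0.57 to 1.71, so no difference was resolved in these libraries.

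Sodium channel β subunits are single-pass proteins with an immunoglobulin-like fold that modulate the pore. *Scn3b* had 5.65, 5.94 and 4.74 CPM in WT and 7.08, 6.12 and 5.61 CPM in *Akita*. Its libraries overlapped between the genotypes, with an adjusted p of 0.580. *Scn2b*, which is linked to the pore by a disulfide bond, had 0.636, 0.702 and 0.629 CPM in WT and 1.05, 1.69 and 1.11 CPM in *Akita*. Its libraries did not overlap, and its log2 fold change was 0.91 with SE 0.30 (adjusted p = 0.175).

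**Figure D4:**
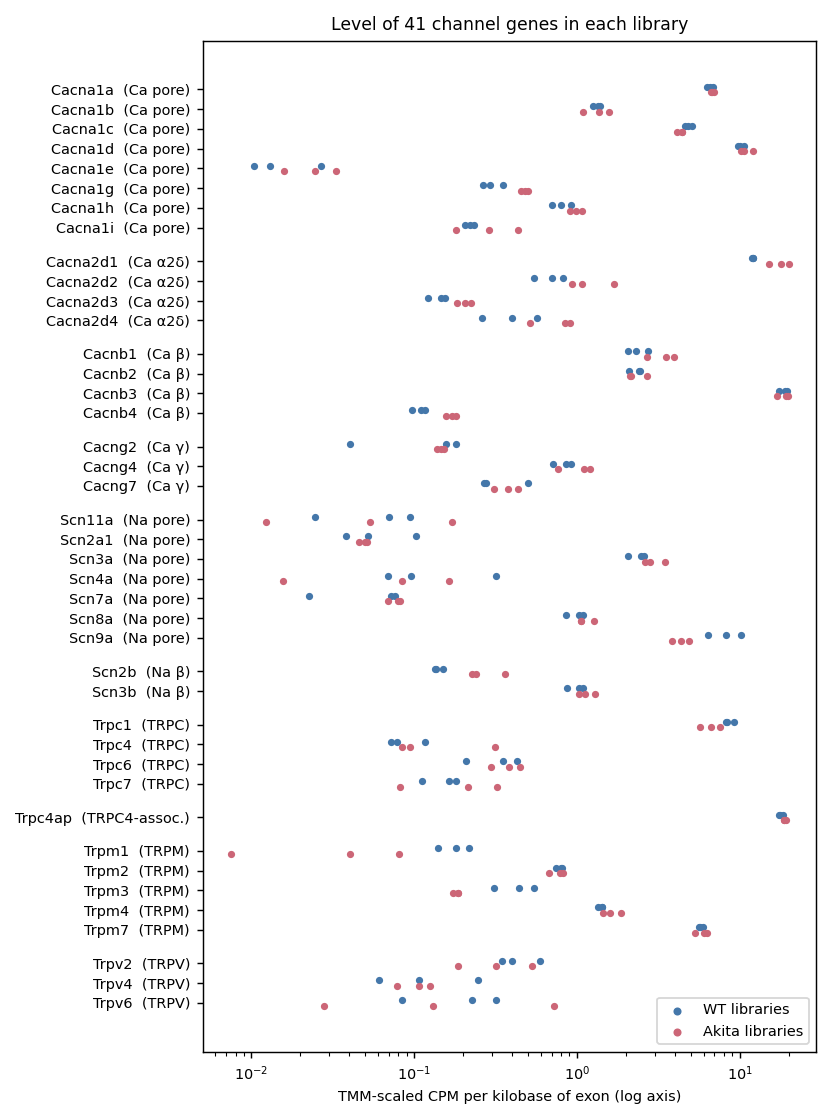
TMM-scaled CPM per kilobase of exon of 41 of the 42 genes in each library, on a log axis, with WT in blue and *Akita* in red. *Cacnb3*, *Trpc4ap*, *Cacna2d1* and *Cacna1d* had means over 10 CPM per kilobase in both genotypes, while *Cacna1e* lay below 0.033.

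Of the 12 TRP channels 7 had estimates below 0, and 3 of these, *Trpm3*, *Trpm1* and *Trpc1*, had an unadjusted p under 0.05. *Trpm3* encodes a heat- and steroid-gated channel that pregnenolone sulfate opens in β-cells. *Trpm3* (chr19:22139119-22989884, plus strand) had 10.8, 13.3 and 7.59 CPM in WT and 4.55, 4.25 and 4.54 CPM in *Akita*. The *Akita* libraries lay close together and below every WT library. The mean was 10.6 ± 2.84 CPM in WT and 4.45 ± 0.171 in *Akita*, a log2 fold change of -1.23 with SE 0.24 (adjusted p = 0.0603), 2.35-fold lower. *Trpm3* passed the threshold under 2 of 14 other settings, limma-trend (adjusted p = 0.0476) and an acinar score as a covariate (0.0448), and the adjusted p reached 0.185 at most.

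*Trpm1*, the channel of retinal ON bipolar cells and melanocytes, had the largest fold change of the 42 genes but few counts. It had 3.22, 2.06 and 2.66 CPM in WT and 1.19, 0.110 and 0.597 CPM in *Akita*. The genotypes did not overlap, with a log2 fold change of -2.53 with SE 0.68 (unadjusted p = 0.00726, adjusted p = 0.117). Leaving out 1 library moved the estimate from -3.25 to -1.59, the former without AK4 and the latter without AK5, and the gene was not tested when 10 counts were required in every library. *Trpm3* took 5.06% ± 1.39 of the summed TRPM level in WT and 2.15% ± 0.247 in *Akita*, and *Trpm1* 2.09% ± 0.396 and 0.506% ± 0.412.

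The stronger TRPM channels overlapped or differed little. *Trpm7*, a magnesium- and calcium-permeable channel with its own kinase domain, had 67.7, 63.3 and 64.2 CPM in WT and 71.2, 68.8 and 60.1 CPM in *Akita*. *Trpm7* took 67.3% ± 0.346 of the summed TRPM level in WT and 69.2% ± 1.33 in *Akita*, and its log2 fold change was 0.033 (95% interval -0.17 to 0.24). *Trpm4*, a calcium-activated channel for monovalent cations, had 15.4, 14.5 and 15.4 CPM in WT and 17.2, 20.3 and 15.7 CPM in *Akita*. All *Akita* libraries of *Trpm4* lay above the WT libraries, AK6 narrowly, with a log2 fold change of 0.23 with SE 0.12 (adjusted p = 0.382). *Trpm2*, opened by ADP-ribose, was at 8.4 to 10.3 CPM with overlapping libraries. In every library the order per kilobase was *Trpm7*, *Trpm4*, *Trpm2*, *Trpm3* and *Trpm1*.

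*Trpc1*, a widely expressed subunit of receptor- and store-operated channels, held 93.8% ± 1.89 of the summed TRPC level in WT and 89.8% ± 3.01 in *Akita*. *Trpc1* (chr9:95705082-95750375, minus strand) had 67.3, 66.6 and 74.5 CPM in WT and 45.9, 53.9 and 61.1 CPM in *Akita*. The genotypes did not overlap, with a log2 fold change of -0.38 with SE 0.11 (unadjusted p = 0.0126, adjusted p = 0.146), 1.30-fold lower. *Trpc6*, opened by diacylglycerol, was next at 21.7 times below *Trpc1* per kilobase, with 2.17, 1.78 and 1.06 CPM in WT and 2.28, 1.5 and 1.95 CPM in *Akita*. *Trpc4* and *Trpc7* were at 0.318 to 2.53 CPM, where AK5 gave the highest value of each. *Trpc4ap* had 154, 152 and 162 CPM in WT and 169, 165 and 164 CPM in *Akita*, a log2 fold change of 0.090 with SE 0.062 (adjusted p = 0.488) without overlap.

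The TRPV genes were the weakest of the TRP families, at 0.793 ± 0.264 CPM per kilobase in sum in WT and 0.744 ± 0.538 in *Akita*. *Trpv2* had 2.66, 1.78 and 1.55 CPM in WT and 2.38, 1.43 and 0.836 CPM in *Akita*. *Trpv6*, a highly calcium-selective channel of epithelia, had 0.898, 0.330 and 1.26 CPM in WT and 2.85, 0.110 and 0.517 CPM in *Akita*. From high to low, *Trpv6* ordered the libraries as AK4, WT3, WT1, AK6, WT2 and AK5, and the mean log2 CPM of the acinar markers, 7.27, 7.09, 7, 4.89, 2.83 and 2.49 in these libraries, ordered them alike. With the acinar score as a covariate the log2 fold change of *Trpv6* turned from -0.33 to 0.67, with adjusted p of 0.908 and 0.492. *Trpv4*, an osmotic and warmth sensor, was at 0.248 to 1.01 CPM. All 3 overlapped between the genotypes.

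The genes under the minimum were those known mainly from other tissues. *Cacna1f* of the retina had 58 counts in all and *Trpc5* 52, and these stood just outside. *Cacna1s* of skeletal muscle and *Cacng6* had 0 counts in all 6 libraries, which allows up to 3 counts, or 0.11 to 0.15 CPM, per library by counting error alone. *Trpc2* was also listed at 0, but all of its exon bases are shared with other genes on the same strand, so its 0 sets no such limit. *Scn1a* of inhibitory neurons had 8 counts, *Scn10a* of sensory neurons 3, *Trpv1*, the capsaicin receptor, 17, and *Trpm8*, the menthol receptor, 15.

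Several members are neighbours in the genome with point estimates of unlike sign. *Scn3a* and *Scn9a* lie in the sodium channel cluster of chromosome 2 with *Scn2a1* and *Scn7a*, and of these genes the estimates were 0.33, -0.91, -0.30 and 0.57. On chromosome 6 *Cacna1c* (118587240 to 119196418) is followed by *Cacna2d4* (119236526 to 119352407) on the opposite strand, with estimates of -0.16 and 0.93.

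Genes that work with these channels were read from 4 lists with 104 tested genes. None of the 104 was called, and 33 (31.7%, against 18.7% of all genes) had an unadjusted p under 0.05, 15 with estimates above 0 and 18 below. Under library totals alone 6 passed, beside 569 of 15407 over all genes, and without AK4 9 did, beside 584 of 15649. Of 28 genes of calcium entry and clearance, 12 (42.9%, beside the same 18.7%) had an unadjusted p under 0.05, 6 in each direction, with a median log2 fold change of 0.055. The lowest p were those of the exchanger *Slc24a2*, which extrudes calcium for sodium (0.53, SE 0.11, adjusted p = 0.0753), the inositol trisphosphate receptor *Itpr2* (0.99, SE 0.26, adjusted p = 0.110) and *Orai2*, a store-operated channel pore (0.61, SE 0.16, adjusted p = 0.110).
Of 31 regulators and anchors of calcium channels, 6 (19.4%) had an unadjusted p under 0.05, 2 above and 4 below 0, with a median of -0.039. *Gem*, a small GTPase that inhibits voltage-gated calcium channels through their β subunits, had 65.0, 75.5 and 78.2 CPM in WT and 24.7, 23.6 and 50.3 CPM in *Akita*. Its genotypes did not overlap, and its log2 fold change was -1.24 with SE 0.27 (adjusted p = 0.0735). The kinase anchor *Akap7* followed at 0.54 (SE 0.14, adjusted p = 0.104) and the exocytosis protein *Stx1a* at -0.34 (SE 0.092, adjusted p = 0.121).

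Of 23 sodium channel partners, 11 (47.8%, against 18.7% of all genes) had an unadjusted p under 0.05, 5 above and 6 below 0, with a median of 0.0042. The lowest p were those of the β subunits of the sodium pump, *Atp1b1* (-0.36, SE 0.081, adjusted p = 0.0819), *Atp1b2* (1.03, SE 0.24, adjusted p = 0.0857) and *Atp1b3* (-0.25, SE 0.068, adjusted p = 0.126). *Atp1b2* thus stood opposite to the other two: it had 6.21, 7.10 and 8.85 CPM in WT and 11.6, 18.9 and 14.6 CPM in *Akita*. *Atp1b1*, with 325, 355 and 296 CPM in WT and 250, 252 and 257 CPM in *Akita*, also did not overlap.
Of 22 genes of other TRP channels and TRP regulators, 4 (18.2%) had an unadjusted p under 0.05, 2 above and 2 below 0, and 16 estimates in all were below 0, with a median of -0.12. *Mcoln3*, an endolysosomal TRP channel, had 6.88, 8.5 and 4.35 CPM in WT and 2.13, 2.12 and 1.79 CPM in *Akita*, a log2 fold change of -1.67 with SE 0.31 (adjusted p = 0.0546) without overlap. *S100a10*, which binds epithelial TRPV channels, had 41.1, 49.6 and 51.4 CPM in WT and 26.4, 10.6 and 15.8 CPM in *Akita* (-1.51, SE 0.29, adjusted p = 0.0594). The third was the polycystin-like *Pkd1l1* (1.18, SE 0.38, adjusted p = 0.167).

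The 3 members closest to the threshold were also compared over the settings. *Cacna2d1* kept an estimate of 0.46 to 0.67, *Trpm3* of -1.42 to -1.05 and *Scn9a* of -1.08 to -0.75 over 14 other settings, so the direction of each was the same in all of them. Scaling by library totals alone shifted the median of all genes by 0.119 on the log2 scale, and estimates under that setting are relative to it.

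**Figure D5:**
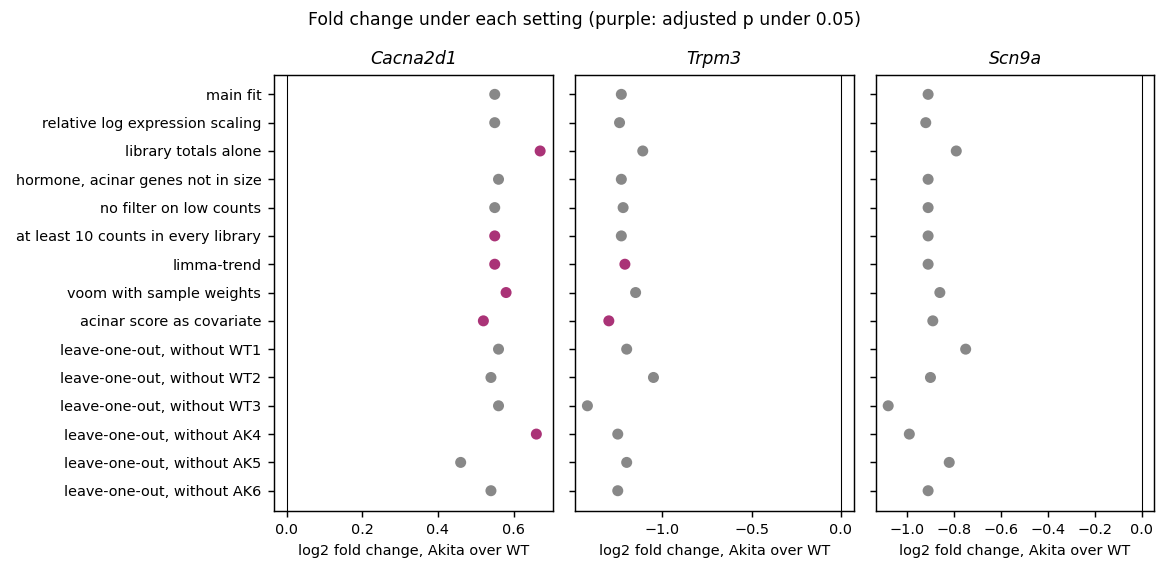
Log2 fold change of *Cacna2d1*, *Trpm3* and *Scn9a* in the main fit and under 14 other settings, with purple for an adjusted p under 0.05; the line marks 0. *Cacna2d1* is purple under 6 settings, *Trpm3* under 2 and *Scn9a* under none, and no point crosses 0.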

How the data were processed

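RNA of whole islets was sequenced from 6 libraries of 120 ng of total RNA, made with a polyadenylation-selecting kit that does not mark strand. By their methods and processing notes, the authors used cutadapt 1.12 for trimming, STAR 2.5.2b for alignment (GRCm38) and HTSeq 0.7.2 for counting, with an annotation release that is not given in the sources used here. They deposited raw counts per gene and library for 40914 of 47729 genes, which the authors left unnormalized, the other 6815 carrying a mark instead. Their 6 columns of normalized counts and the fold changes and p-values of their DESeq2 1.12.4 comparison were not used. Because of the marks the columns were taken as whole-number values of another unit than a plain count table and tested with limma-voom.

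In R 4.3.3 with limma 3.58.1, genes were kept when 3 libraries reached the CPM of 10 counts in the median library and the sum was at least 15, which left 15407 genes and all 42 members. TMM factors (0.937 to 1.09) scaled the libraries, log2 CPM used a pseudocount of 0.5, and p-values were adjusted by the Benjamini–Hochberg method over all genes tested (threshold 0.05), with no covariate. The fit was tried on simulated counts with the same spread between libraries for every gene. The real libraries do not share that spread, so the trial does not measure the error of the fit here. Levels between genes were compared per kilobase of the union of exons of GENCODE mouse release 21 (all 42 identifiers found). Columns were matched to genotypes and not to single samples. Libraries of a genotype differed by more than sampling noise and were kept apart. The depth of 22069554 to 27043169 counts limits weak genes. The limits given for genes at 0 counts cover counting error only, whereas the 95% intervals of fold changes come from the fit and rest on the spread between pools. Python 3.11.15, pandas 2.3.3 and SciPy 1.17.1 made the summaries.

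The members, gene lists and tests were chosen with earlier results of these data known. Described by library were genes past an unadjusted or adjusted p of 0.05, the 2 strongest per kilobase in each of 7 groups, and those next to the minimum of 60 counts; of each partner list, the 3 with the lowest p. Of the marker lists, δ-cell, PP-cell, ductal, endothelial, mesenchymal, macrophage, lymphocyte, glial, red blood cell and RNA quality genes had no call. Some genes counted above are not reported singly here. The alternatives were 3 other scalings, 2 other filters, limma-trend, sample weights, an acinar covariate, 2 other gene lengths and each library left out.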

Additional observations from a re-analysis of the deposited data

How the results depend on the processing

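No paired analysis was possible because the *Akita* columns carry numbers that do not match those of the labels. The sources used here also describe no pairing of WT with *Akita* pools for the sequencing. A replicate number shared by labels of both genotypes therefore need not mark a pair. The 0 channel genes called became 1 under library totals alone, 1 with at least 10 counts in every library, 2 with limma-trend, 1 with sample weights and 2 with an acinar covariate, and lay between 0 and 1 when each library was left out; these were *Cacna2d1* each time and *Trpm3* with limma-trend and the covariate. The 0 partner genes became 6, 1, 1, 3 and 1 under the same settings and 0 to 9 when libraries were left out. Calls over all genes rose under these settings as well, from 249 of 15407 in the main fit. They were 569 of 15407 under library totals alone, 281 of 14110 with at least 10 counts in every library and 312 of 15407 with limma-trend. With sample weights they were 521 of 15407 and with the acinar covariate 316 of 15407. The 11 channel genes at an unadjusted p under 0.05 became 19 under library totals alone and 6 to 12 when libraries were left out. Over all genes the same count was 2879 in the main fit and 3755 under library totals alone. It ran from 1970 (without WT2) to 3764 (without AK4) when libraries were left out. The 14 without overlap became 14 to 22 when libraries were left out, the highest without WT3. All 14 stayed without overlap each time, but removing a library cannot bring overlap to separated groups, apart from small changes in scaling. Fewer libraries are also more easily separated, so the rise to 22 follows from the smaller groups. Neither is a result about the genes. The 249 calls over all genes became 569 under library totals alone (450 higher and 119 lower, against 117 and 132), 521 with sample weights, and 0 to 584 when libraries were left out. Of 332 fold changes of named channel genes under other settings 308 kept their direction and side of the threshold, 8 passed it and 16 changed sign, none of them called in any setting. *Cacnb3* was at 0.12 under library totals alone, 0.0020 with library sizes that omit hormone and acinar genes, 0.00055 without a filter, 0.020 with sample weights and -0.048 to 0.073 with libraries left out. *Trpm7* was at -0.0096 with sample weights and -0.010 to 0.11 with libraries left out, and *Trpc6* at -0.065 to 0.42. *Trpv6* was at 0.67 and *Scn11a* at 0.40 with the acinar covariate, and at -1.50 to 0.80 and -1.05 to 0.74 with libraries left out. *Trpm1*, *Trpv6*, *Scn11a* and *Scn7a* gave no value with at least 10 counts in every library. The causes were not tested. Genes under 1 CPM rest on few counts.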
